A study of Mus musculus with 19 samples.

Results

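Neural progenitor cells lacking Mettl14 were compared with wild-type neural progenitor cells in 8 RNA sequencing libraries made by length fractionation, 4 wild type (WT1 to WT4) and 4 knockout (KO1 to KO4). The members were chosen by library type and genotype label, and they are 8 of the 19 samples of the series and 8 of its 11 short-read libraries. Both genotypes came from the cortex of mouse embryos, from Mettl14 wild-type mice or from conditional Mettl14 knockout mice, and both were grown on Matrigel in Neurobasal medium with B27, heparin, FGF2 at 20 ng/ml and EGF at 20 ng/ml. The Cre driver, the age of the embryos, and whether a library is one embryo, one culture or one repeat are not given in the sources used here, so the p-values below measure the spread between these libraries, which may be technical. Poly(A) RNA was separated into 7 length bands that each carried their own index, and 2 × 75 bp paired reads were sequenced on a NextSeq. Values are CPM, a gene's read count scaled to the size of its library after trimmed-mean normalization, given as mean ± SD over 4 libraries, and fold changes are knockout against wild type.

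METTL14 is the RNA-binding partner of METTL3 in the nuclear complex that writes N6-methyladenosine (m6A) on messenger RNA, mostly in the sequence context around GGAC, in long internal exons and near stop codons. The mark is read by YTH-domain proteins, and many marked mRNAs are degraded faster than unmarked ones. In the embryonic cortex, radial glia without METTL14 are known to cycle slowly and to make neurons over a prolonged period.

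Each library labelled KO carried less Mettl14 RNA than any wild-type library, with 24.9, 20.2, 28.4 and 27.6 CPM in WT1 to WT4 and 6.13, 8.07, 6.62 and 6.90 CPM in KO1 to KO4 (log2 change -1.87, SE 0.13, adjusted p = 5.4e-07, edgeR quasi-likelihood test with Benjamini-Hochberg adjustment, which is also the test behind every other adjusted p for a gene). All targets together held 103752444 to 126921887 estimated counts per wild-type library and 104899560 to 118197946 per knockout library. Libraries of one genotype correlated at 0.988 to 0.993 on the log2 CPM scale and libraries of different genotypes at 0.949 to 0.961. Ribosomal RNA took 4.60 to 9.40% of the counts in wild type and 2.58 to 3.08% in knockout. The genotypes also differed in sex-linked genes: the 4 Y-linked markers tested were all called higher, and Xist, the RNA of the inactive X, was lower (log2 change -1.63, adjusted p = 1.1e-05). Sex of the embryos and genotype therefore cannot be told apart for single genes. Levels also differed with the base composition of the transcript, as described with gene structure.

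Of 18687 genes that passed the expression filter, 4926 (26.4%) were called higher and 5090 (27.2%) lower in knockout at an adjusted p under 0.05. Their median log2 change was -0.03. The called genes included 1866 that rose and 1942 that fell by 2-fold or more. Large rises outnumbered large falls: 539 against 425 at a log2 change of 2 or more, 227 against 116 at 3 or more, and 50 against 8 at 5 or more. For 8737 of the 10016 called genes the 4 knockout libraries all lay on one side of the 4 wild-type libraries. Such separation was not counted over all 18687 genes. The test favours genes that separate, so this count adds no support to the calls. The counts below for gene groups are read against 26.4% and 27.2%. These shares vary with level. At 4 to 6 log2 CPM 32.9% were higher and 19.9% lower, with 32.0% and 15.6% at 6 to 8, and 18.3% and 31.7% under 0. A list of well-expressed genes can thus lean higher as such genes do. Rises and falls were both picked for naming from each list that held them. Named pairs that move in opposite directions follow from that choice and say nothing about their list.

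The 10 genes of regular symbol that gained most CPM with at least a 2-fold rise were Actb, Bcan, Ncl, Serpinh1, Isg15, Lrrc4b, Cspg5, Marcks, Hnrnpa0 and Cdk2ap1. Serpinh1, the collagen chaperone HSP47 of the endoplasmic reticulum, had 95.3, 81.3, 109 and 109.5 CPM in WT1 to WT4 and 555, 587, 655 and 588 CPM in KO1 to KO4 (log2 change 2.59, SE 0.13, adjusted p = 5.0e-08). The knockout libraries were all several times above the wild-type ones. Actb, cytoplasmic beta-actin, had 667, 608, 735 and 738 CPM in WT1 to WT4 and 1473, 1531, 1703 and 1543 CPM in KO1 to KO4 (log2 change 1.19, SE 0.12, adjusted p = 6.8e-06). Ncl, nucleolin, a nucleolar protein of ribosome production, had 375, 339.6, 464 and 439.6 CPM in WT1 to WT4 and 854, 1054, 944 and 916 CPM in KO1 to KO4 (log2 change 1.22, SE 0.13, adjusted p = 1.5e-05). Neither gene overlapped between genotypes, and both were more than doubled. Among these 10 rises were 2 proteoglycans: Bcan (brevican) went from 834 ± 272 to 1682 ± 214 CPM (log2 change 1.01, adjusted p = 0.0031) and Cspg5 (neuroglycan C) from 316 ± 49.4 to 676 ± 50.1 CPM (log2 change 1.10, adjusted p = 3.8e-05). Lrrc4b, a synaptic adhesion protein also called NGL-3, had 196, 86.4, 239.8 and 216 CPM in WT1 to WT4 and 472, 604, 638 and 611 CPM in KO1 to KO4 (log2 change 1.66, SE 0.26, adjusted p = 3.0e-04). Among the wild-type libraries WT2 was the lowest for Lrrc4b, and it was also the lowest for Bcan (838, 451, 1062 and 985 CPM in WT1 to WT4 and 1368, 1772, 1848 and 1739 CPM in KO1 to KO4). Marcks, an actin-binding substrate of protein kinase C, went from 242 ± 80.5 to 579 ± 47.9 CPM (log2 change 1.26, adjusted p = 6.1e-04) and Hnrnpa0, an RNA-binding protein, from 249 ± 83.9 to 545 ± 37.1 CPM (log2 change 1.13, adjusted p = 0.0016). Cdk2ap1, an inhibitor of CDK2 and a subunit of the NuRD complex, rose from 256 ± 26.1 to 533 ± 68.9 CPM (log2 change 1.06, adjusted p = 3.5e-05).

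Of the 10 largest falls, 7 were glycolytic enzymes (Gapdh, Aldoa, Gpi1, Tpi1, Ldha, Pgk1 and Pgam1), and another was Bsg (basigin), the chaperone of monocarboxylate transporters. The remaining members were Ccnd2, cyclin D2, at 1908, 2088, 1619 and 1337 CPM in WT1 to WT4 and 994, 857, 782 and 816 CPM in KO1 to KO4 (log2 change -1.01, SE 0.15, adjusted p = 2.0e-04), and Ptprz1, a receptor phosphatase of radial glia, at 1199, 1241, 931 and 824 CPM in WT1 to WT4 and 484, 381, 299 and 352 CPM in KO1 to KO4 (log2 change -1.47, SE 0.18, adjusted p = 3.9e-05). Both separated completely between genotypes. Pgk1, which makes ATP from 1,3-bisphosphoglycerate, had 1267, 1179, 1407 and 1375 CPM in WT1 to WT4 and 366, 369, 383 and 344 CPM in KO1 to KO4 (log2 change -1.84, SE 0.11, adjusted p = 1.9e-07).

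**Figure D1:**
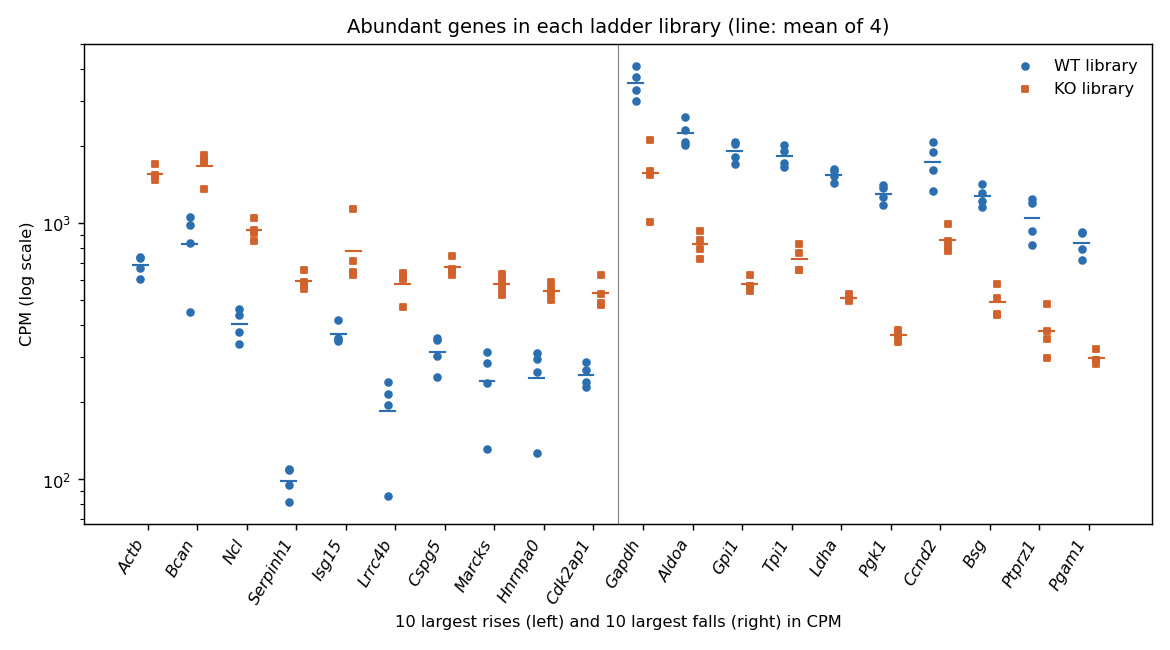
CPM on a log axis for the 10 genes with the largest rise (left) and the 10 with the largest fall (right) in mean CPM among genes called with a 2-fold change or more. Each point is 1 library (blue circles WT, orange squares KO) and each line the mean of 4. Knockout points lie wholly above the wild-type points on the left and wholly below them on the right, and Serpinh1 shows the widest gap of the rises.

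The falls among glycolytic and low-oxygen genes are set beside the promoters of those genes, because the hypoxia-inducible factors bind the letters ACGTG. Of 24 tested genes of that list, 1 was called higher and 22 lower, with a median log2 change of -1.40. Of the 20 list members matched to a RefSeq start, 11 (55%) held ACGTG on either strand within 250 bases before to 50 after the start, against 2522 of 9905 matched protein-coding genes (25.5%). Among genes called lower by 2-fold or more 163 of 752 (21.7%) held it, and among those called higher by 2-fold or more 220 of 1031 (21.3%). On both strands the search finds ACGTG or CACGT, and CACGTG holds both. Log2 changes ran from -3.06 (Ankrd37) to -0.26 (Hk2) in list members with a match, and from -2.31 (Pfkp) to 0.36 (Aldoc) in members without one. At least 2 matches were held by 5 list promoters, among them those of Ankrd37 and Hk2, which are not shown. The upstream 250 bases of the other 3 are shown from RefSeq on GRCm38.p6, 5′ to 3′ on the gene's strand, with the matches in capitals. They belong to Ldha (chr7:46845554-46845803, plus strand, 5 matches), which makes lactate from pyruvate, to Bnip3 (chr7:138909507-138909756, minus strand, 2 matches), a receptor for removal of mitochondria, and to Pgk1 (chrX:106186850-106187099, plus strand, 2 matches).
Ldha: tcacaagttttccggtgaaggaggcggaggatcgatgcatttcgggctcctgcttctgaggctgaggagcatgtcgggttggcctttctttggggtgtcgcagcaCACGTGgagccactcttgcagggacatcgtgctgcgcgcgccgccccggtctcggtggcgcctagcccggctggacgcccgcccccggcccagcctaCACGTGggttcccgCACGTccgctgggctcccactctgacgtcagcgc
Bnip3: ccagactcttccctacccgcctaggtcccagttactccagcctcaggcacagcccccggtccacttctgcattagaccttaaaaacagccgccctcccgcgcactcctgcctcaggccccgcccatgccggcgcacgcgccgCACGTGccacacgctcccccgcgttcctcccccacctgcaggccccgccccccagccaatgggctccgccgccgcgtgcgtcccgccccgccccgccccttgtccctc
Pgk1: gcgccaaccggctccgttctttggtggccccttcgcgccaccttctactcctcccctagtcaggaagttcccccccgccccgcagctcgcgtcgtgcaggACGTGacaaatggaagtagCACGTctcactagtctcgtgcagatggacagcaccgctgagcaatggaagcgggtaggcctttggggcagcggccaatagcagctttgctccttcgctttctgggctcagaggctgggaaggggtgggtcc
Bnip3 fell from 144 ± 5.54 to 19.3 ± 0.899 CPM (log2 change -2.89, SE 0.10, adjusted p = 2.9e-09). Slc16a3, the lactate exporter MCT4, fell from 39.0 ± 8.46 to 2.69 ± 0.218 CPM (log2 change -3.85, adjusted p = 2.1e-08). A promoter match here is a description of the letters, and binding was not measured. The 1 list member called higher was Aldoc, the aldolase form of brain, at 192 ± 4.01 to 245 ± 7.73 CPM (log2 change 0.36, adjusted p = 0.0070), a call that was lost when each library was corrected for GC content (adjusted p = 0.093).

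No gene of ribosome production on the list was called lower. Of 22 tested genes of ribosome biogenesis, 13 were called higher and 0 lower, with a median log2 change of 0.39. Nop2, a methylase of the large-subunit rRNA, had 37.9, 34.3, 45.7 and 42.7 CPM in WT1 to WT4 and 101, 119, 127 and 118 CPM in KO1 to KO4 (log2 change 1.53, SE 0.12, adjusted p = 1.2e-06). Polr1b, the second largest subunit of RNA polymerase I, had 17.6, 16.3, 12.004 and 15.2 CPM in WT1 to WT4 and 36.5, 36.3, 38.6 and 31.3 CPM in KO1 to KO4 (log2 change 1.22, SE 0.13, adjusted p = 1.1e-05). Both separated completely, as did Ncl above. After GC correction 10 of the 22 were still called higher and 0 lower. Translation factors did not move one way: of 26 tested genes of this list, 6 were called higher and 4 lower, with a median log2 change of -0.02. Eef2, the elongation factor that moves the ribosome, went from 2680.4 ± 788 to 5197 ± 691 CPM (log2 change 0.96, adjusted p = 0.0027), with WT2 again the lowest at 2705, 1607, 3488 and 2921 CPM in WT1 to WT4 and 4186, 5638, 5643 and 5320.2 CPM in KO1 to KO4. Eif1a, which scans for start codons, went from 20.5 ± 4.61 to 51.9 ± 3.30 CPM (log2 change 1.34, adjusted p = 3.1e-05), and Eif4a2, an RNA helicase, from 126 ± 7.37 to 87.5 ± 3.82 CPM (log2 change -0.53, adjusted p = 6.1e-04). Ribosome number was not measured.

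Chaperones changed in both directions. Of 17 tested genes of heat shock factors and chaperones, 10 were called higher and 2 lower, with a median log2 change of 0.47. Hsp90ab1, the constitutive HSP90, had 1439, 1474, 1652 and 1629.6 CPM in WT1 to WT4 and 2549, 2968, 2970.2 and 2802 CPM in KO1 to KO4 (log2 change 0.87, SE 0.12, adjusted p = 7.6e-05). Its inducible paralog Hsp90aa1 had 521, 539, 523 and 511 CPM in WT1 to WT4 and 344, 388, 391 and 304 CPM in KO1 to KO4 (log2 change -0.55, SE 0.11, adjusted p = 0.0017). The first was higher and the second lower in every knockout library. Bag3, an HSP70 cochaperone of selective autophagy, rose from 9.51 ± 1.73 to 33.4 ± 3.14 CPM (log2 change 1.81, adjusted p = 1.0e-06), and Hspd1, the mitochondrial chaperonin HSP60, from 301 ± 29.5 to 584 ± 73.3 CPM (log2 change 0.96, adjusted p = 7.5e-05). Of 18 tested genes of endoplasmic reticulum chaperones, 7 were called higher and 4 lower, with a median log2 change of 0.24. Pdia4, a disulfide isomerase, rose from 120.1 ± 15.9 to 301 ± 28.9 CPM (log2 change 1.33, adjusted p = 5.4e-06), while Hsp90b1 (GRP94) fell from 692 ± 24.1 to 417 ± 50.1 CPM (log2 change -0.73, adjusted p = 3.0e-04) and Calr (calreticulin) from 405 ± 50.9 to 254 ± 53.8 CPM (log2 change -0.67, adjusted p = 0.0035). Proteasome subunits moved little: of 31 tested genes of this list, 2 were called higher and 3 lower, with a median log2 change of -0.13.

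Genes of amino acid and methyl-group metabolism were called in both directions. Of 15 tested genes of serine, glycine and folate metabolism, 9 were called higher and 3 lower, with a median log2 change of 0.32. Gldc, the glycine-cleaving enzyme of mitochondria, had 56.2, 58.8, 45.2 and 64.9 CPM in WT1 to WT4 and 154, 159, 175 and 129.5 CPM in KO1 to KO4 (log2 change 1.46, SE 0.14, adjusted p = 4.6e-06). Aldh1l2, which oxidises formyl-tetrahydrofolate in mitochondria, had 79.1, 79.2, 63.9 and 54.5 CPM in WT1 to WT4 and 27.01, 22.9, 21.3 and 21.4 CPM in KO1 to KO4 (log2 change -1.58, SE 0.14, adjusted p = 3.5e-06). These 2 changes run in opposite directions in all 4 knockout libraries. After GC correction 5 of the 15 list members were called higher and 3 lower. Mat2a, which makes S-adenosylmethionine, the methyl donor of the m6A writer, had 181, 163, 163 and 189 CPM in WT1 to WT4 and 96.7, 104, 114 and 82.7 CPM in KO1 to KO4 (log2 change -0.81, SE 0.12, adjusted p = 1.5e-04). MAT2A mRNA is a known target of METTL16, another m6A methylase. Odc1, the first enzyme of polyamine synthesis, rose from 132 ± 6.75 to 222 ± 9.82 CPM (log2 change 0.75, adjusted p = 5.4e-05). Targets of ATF4, the transcription factor of amino acid stress, were called lower more often than higher: of 19 tested genes of the list, 4 were called higher and 8 lower, with a median log2 change of -0.19. With limma on log2(TPM + 1) 4 were called higher and 4 lower. Stc2 fell from 15.3 ± 1.42 to 5.004 ± 0.482 CPM (log2 change -1.61, adjusted p = 4.8e-07), Nupr1 from 35.4 ± 6.20 to 13.1 ± 2.60 CPM (log2 change -1.43, adjusted p = 1.8e-05) and the cystine importer Slc7a11 from 74.9 ± 17.7 to 33.1 ± 0.797 CPM (log2 change -1.18, adjusted p = 4.3e-05). Slc7a5, an importer of leucine, went the other way at 172, 93.7, 171 and 169 CPM in WT1 to WT4 and 309, 348, 421 and 308 CPM in KO1 to KO4 (log2 change 1.19, SE 0.19, adjusted p = 3.1e-04). WT2 was the lowest for Slc7a5 as well.

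Iron and lysosome genes held some of the larger single changes. Cybrd1, a ferric reductase, had 23.1, 22.7, 16.8 and 15.6 CPM in WT1 to WT4 and 1.30, 1.13, 1.23 and 1.23 CPM in KO1 to KO4 (log2 change -4.00, SE 0.16, adjusted p = 8.8e-09). Tfrc, the transferrin receptor, had 19.99, 26.6, 16.7 and 15.5 CPM in WT1 to WT4 and 9.501, 7.18, 5.66 and 6.77 CPM in KO1 to KO4 (log2 change -1.44, SE 0.19, adjusted p = 7.7e-05). Both fell in every knockout library, while Trf, transferrin itself, rose from 226 ± 16.8 to 323 ± 18.6 CPM (log2 change 0.52, adjusted p = 0.0015). For Tfrc the adjusted p was 0.067 when effective length was added as an offset. For iron handling, of 11 tested genes of the list, 4 were called higher and 4 lower, with a median log2 change of 0.23. Of 22 tested genes of lysosome and autophagy, 10 were called higher and 2 lower, with a median log2 change of 0.24. Grn, progranulin, had 63.4, 56.7, 72.3 and 73.9 CPM in WT1 to WT4 and 155, 167, 181 and 158 CPM in KO1 to KO4 (log2 change 1.31, SE 0.12, adjusted p = 2.9e-06). Ctsz, cathepsin Z, had 72.0, 76.9, 64.5 and 67.9 CPM in WT1 to WT4 and 14.7, 17.3, 14.8 and 21.2 CPM in KO1 to KO4 (log2 change -2.05, SE 0.13, adjusted p = 3.1e-07). Grn was picked as a rise and Ctsz as a fall. In the list of NRF2 targets, Nqo1 rose from 5.02 ± 0.189 to 11.6 ± 0.548 CPM (log2 change 1.21, adjusted p = 9.5e-07) and Srxn1 fell from 50.8 ± 7.30 to 21.5 ± 2.57 CPM (log2 change -1.24, adjusted p = 1.3e-05). Of 17 tested genes of NRF2 targets and glutathione, 5 were called higher and 4 lower, with a median log2 change of 0.01.

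Factors that degrade or process RNA mostly stayed below the threshold. Of 24 tested genes of mRNA deadenylation and decay, 4 were called higher and 3 lower, with a median log2 change of -0.06. Cnot7, a catalytic deadenylase of the CCR4-NOT complex that YTHDF2 recruits, had 42.5, 41.3, 36.8 and 44.8 CPM in WT1 to WT4 and 22.2, 23.5, 24.0 and 18.8 CPM in KO1 to KO4 (log2 change -0.90, SE 0.11, adjusted p = 3.7e-05). Btg1, a protein that binds that deadenylase, had 21.9, 20.6, 25.2 and 25.4 CPM in WT1 to WT4 and 39.9, 42.2, 45.1 and 41.0 CPM in KO1 to KO4 (log2 change 0.85, SE 0.10, adjusted p = 3.6e-05). The 2 moved in opposite directions. Nonsense-mediated decay factors included 4 called higher and 0 lower of 15 tested. Upf1, the helicase of that pathway, went from 51.8 ± 8.12 to 72.3 ± 8.94 CPM (log2 change 0.48, adjusted p = 0.0094), a call lost under GC correction (adjusted p = 0.20), and Smg8 went from 17.1 ± 1.92 to 25.7 ± 3.06 CPM (log2 change 0.59, adjusted p = 0.0014). Of 19 tested genes of cleavage and polyadenylation, 6 were called higher and 5 lower, with a median log2 change of 0.05. Clp1, a kinase of cleavage factor II, rose from 5.61 ± 0.460 to 11.3 ± 0.377 CPM (log2 change 1.01, adjusted p = 6.2e-06) and Papola, the main nuclear poly(A) polymerase, fell from 49.1 ± 11.2 to 32.2 ± 3.93 CPM (log2 change -0.61, adjusted p = 0.0072). In the small RNA pathway Tnrc6c, a GW182 protein that links Argonaute to deadenylation, had 22.2, 30.8, 21.2 and 22.03 CPM in WT1 to WT4 and 72.9, 56.6, 67.8 and 56.5 CPM in KO1 to KO4 (log2 change 1.40, SE 0.15, adjusted p = 1.0e-05). It was the largest rise among the 14 tested genes of that list, of which 2 were called higher and 4 lower.

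Chromatin regulators changed in both directions. Of 27 tested genes of the Polycomb complexes, 7 were called higher and 8 lower, with a median log2 change of 0.05. Cbx2, a chromobox reader of Polycomb repressive complex 1, went from 7.41 ± 1.21 to 12.8 ± 1.22 CPM (log2 change 0.79, adjusted p = 3.0e-04). Pcgf5, a RING-finger partner of variant complexes, went from 8.78 ± 1.55 to 4.65 ± 0.307 CPM (log2 change -0.92, adjusted p = 1.4e-04). Of 14 tested genes of DNA methylation and hydroxymethylation, 5 were called higher and 1 lower, with a median log2 change of 0.14. Tet3, which oxidises 5-methylcytosine, had 28.8, 35.5, 29.1 and 21.4 CPM in WT1 to WT4 and 75.6, 65.5, 47.6 and 57.5 CPM in KO1 to KO4 (log2 change 1.10, SE 0.17, adjusted p = 2.5e-04), and the knockout libraries were all above the wild-type ones. Mbd3, a NuRD subunit, rose from 237 ± 16.2 to 395 ± 51.9 CPM (log2 change 0.74, adjusted p = 3.8e-04). Of 21 tested genes of histone acetylases and deacetylases, 4 were called higher and 3 lower, with a median log2 change of 0.05, and 4 were called higher and 7 lower after GC correction. Hdac9, one of those lower, had 10.7, 10.9, 8.58 and 8.47 CPM in WT1 to WT4 and 4.16, 3.36, 3.28 and 3.11 CPM in KO1 to KO4 (log2 change -1.47, SE 0.13, adjusted p = 3.9e-06). Of 31 tested genes of histone lysine methylases and demethylases, 7 were called higher and 4 lower, with a median log2 change of 0.06, and 3 were called higher and 5 lower after GC correction.

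**Figure D2:**
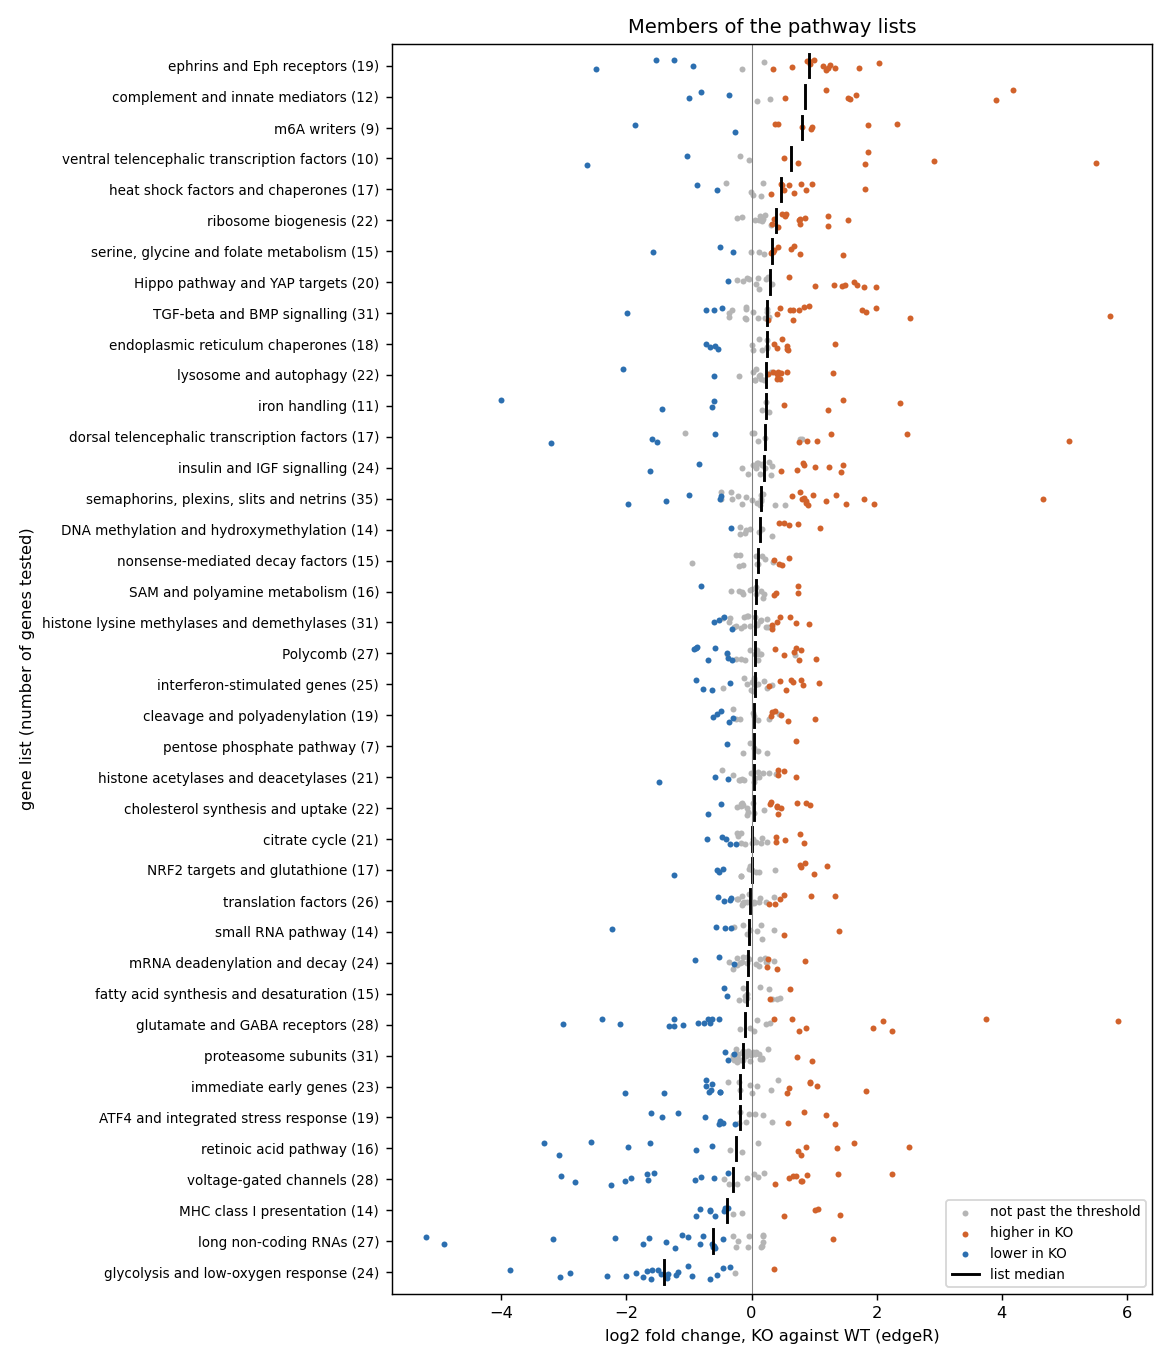
Log2 fold change of every tested member of the pathway lists, ordered by list median (black tick), with the number of genes tested after each list name. The HOX list, with 4 tested genes, is not drawn. Orange points were called higher in knockout, blue points lower, and grey points did not pass the threshold. The glycolysis and low-oxygen list has the lowest part of the plot with a median of -1.40, while the ephrin list has a median of 0.93.

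Immune genes were called in both directions. The interferon-stimulated list had 32.0% called higher and 16.0% lower, against 32.0% and 15.6% of all tested genes at 6 to 8 log2 CPM. Of 25 tested genes of the interferon-stimulated list, 8 were called higher and 4 lower, with a median log2 change of 0.05. Isg15, a ubiquitin-like protein, had 349, 351, 419 and 357 CPM in WT1 to WT4 and 716, 626, 649 and 1141 CPM in KO1 to KO4 (log2 change 1.09, SE 0.19, adjusted p = 4.8e-04), with KO4 the highest library. Bst2, tetherin, had 495, 516, 622 and 553 CPM in WT1 to WT4 and 954, 841, 784 and 1287 CPM in KO1 to KO4 (log2 change 0.82, SE 0.16, adjusted p = 0.0012), and KO4 was again the highest. The sensors and effectors Ifih1, from 38.7 ± 9.22 to 22.6 ± 2.69 CPM (log2 change -0.77, adjusted p = 0.0022), and Ifit2, from 66.7 ± 12.8 to 36.2 ± 4.92 CPM (log2 change -0.88, adjusted p = 6.1e-04), fell. In MHC class I presentation, of 14 tested genes of that list, 4 were called higher and 8 lower, with a median log2 change of -0.40. H2-K1, a classical class I chain, had 1088, 1029.8, 1211 and 1142 CPM in WT1 to WT4 and 645, 635, 649 and 587 CPM in KO1 to KO4 (log2 change -0.83, SE 0.11, adjusted p = 6.1e-05). Tapbp, tapasin, which loads peptide onto that chain, had 48.3, 37.0, 62.3 and 58.4 CPM in WT1 to WT4 and 112, 139, 151 and 145 CPM in KO1 to KO4 (log2 change 1.41, SE 0.17, adjusted p = 2.8e-05). The chain was lower and its loading factor higher in all 4 knockout libraries. Reads of H2-K1 can be shared with other class I genes, so its level is uncertain. Nlrc5, the transcription factor of class I genes, fell from 51.7 ± 8.44 to 28.1 ± 2.94 CPM (log2 change -0.88, adjusted p = 2.0e-04).

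Secreted mediators were called higher more often than lower. Of 12 tested genes of complement and innate mediation, 7 were called higher and 3 lower, with a median log2 change of 0.86. Cxcl12, the chemokine SDF-1, had 0.524, 0.494, 0.450 and 0.470 CPM in WT1 to WT4 and 9.64, 8.69, 8.46 and 8.45 CPM in KO1 to KO4 (log2 change 4.18, SE 0.12, adjusted p = 1.5e-09). C3, the central complement protein, had 0.413, 0.494, 0.482 and 0.544 CPM in WT1 to WT4 and 6.94, 7.47, 8.39 and 6.12 CPM in KO1 to KO4 (log2 change 3.90, SE 0.15, adjusted p = 6.1e-09). Lcn2, a siderophore-binding lipocalin made by reactive astrocytes, had 6.47, 6.497, 5.17 and 5.41 CPM in WT1 to WT4 and 19.6, 17.01, 14.4 and 24.2 CPM in KO1 to KO4 (log2 change 1.68, SE 0.16, adjusted p = 5.0e-06). Knockout libraries were above wild-type libraries for all 3. Of 12 listed markers of meningeal fibroblasts, cells that can make Cxcl12, 8 passed the expression filter. Of those 8, 6 were called higher and 0 lower, and their summed level ranged from 1.04 to 1.29 CPM in wild type and from 8.84 to 9.83 CPM in knockout. Markers this low in wild type can pass the filter through the knockout libraries and can hardly be called lower, so these counts carry little weight. Of 15 microglia markers 9 did not pass the expression filter, among them Aif1, Cx3cr1, Tmem119, Itgam, Ptprc, Tyrobp, C1qa, C1qb and Lyz2, and the 6 tested summed to 31.6 to 35.1 CPM in wild type and 40.2 to 45.2 CPM in knockout. Among endothelial and mural markers 9 of 12 were called higher and 3 lower. Their summed level nevertheless fell, from 105 to 165 CPM in wild-type libraries to 70.5 to 84.6 CPM in knockout libraries. Flt1 (VEGF receptor 1), 1 of the 3 called lower, fell from 3.78 ± 0.436 to 0.283 ± 0.0852 CPM (log2 change -3.74, adjusted p = 7.2e-08). The mean sum was 134 CPM in wild type and 74.6 CPM in knockout, so Flt1 held little of that fall. Cspg4, also listed as a marker of the oligodendrocyte lineage, is among the markers of this list. The part of other cell types in these results was not tested, and in cultured cells measured in bulk fewer cells of a type and less RNA per cell cannot be told apart.

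A ligand and a receptor of the TGF-beta branch rose. Of 31 tested genes of TGF-beta and BMP signalling, 14 were called higher and 4 lower, with a median log2 change of 0.25. Tgfb3, a ligand, had 1.96, 0.958, 1.94 and 1.30 CPM in WT1 to WT4 and 8.27, 8.04, 11.1 and 7.92 CPM in KO1 to KO4 (log2 change 2.52, SE 0.22, adjusted p = 2.9e-06). Tgfbr2, the type II receptor, had 11.1, 12.1, 9.37 and 12.8 CPM in WT1 to WT4 and 44.7, 46.7, 49.1 and 39.1 CPM in KO1 to KO4 (log2 change 1.99, SE 0.12, adjusted p = 2.0e-07). Neither overlapped. Bmp1, the procollagen protease, fell from 200.4 ± 24.4 to 133 ± 20.3 CPM (log2 change -0.59, adjusted p = 0.0031). In the Hippo pathway 9 genes were called higher and 1 lower of 20 tested. They included Lats2, the kinase that restrains YAP, at 12.8, 13.2, 11.6 and 14.1 CPM in WT1 to WT4 and 49.4, 50.5, 54.8 and 50.2 CPM in KO1 to KO4 (log2 change 1.99, SE 0.10, adjusted p = 4.9e-08), and Tead2, the DNA-binding partner of YAP, at 17.99, 15.9, 20.4 and 19.9 CPM in WT1 to WT4 and 55.4, 59.1, 64.3 and 59.3 CPM in KO1 to KO4 (log2 change 1.68, SE 0.11, adjusted p = 3.1e-07). The kinase and the transcription factor it opposes thus rose together. Axl, a receptor kinase and YAP target, rose from 13.3 ± 2.14 to 45.9 ± 3.87 CPM (log2 change 1.79, adjusted p = 6.0e-07).

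Retinoic acid genes changed in both directions. Of 16 tested genes of the retinoic acid pathway, 6 were called higher and 7 lower, with a median log2 change of -0.25. Rarb, a retinoic acid receptor that is itself induced by the ligand, had 52.2, 47.9, 43.7 and 50.8 CPM in WT1 to WT4 and 14.7, 14.2, 22.6 and 11.6 CPM in KO1 to KO4 (log2 change -1.62, SE 0.18, adjusted p = 1.7e-05). The receptor partner Rxra had 9.98, 12.1, 11.2 and 14.6 CPM in WT1 to WT4 and 30.5, 30.1, 34.7 and 28.3 CPM in KO1 to KO4 (log2 change 1.37, SE 0.13, adjusted p = 4.2e-06). Rarb was lower and Rxra higher in every knockout library. After GC correction the list held 5 called higher and 9 lower. In insulin and IGF signalling 8 of 24 tested were called higher and 2 lower. Foxo1 rose from 12.2 ± 1.78 to 32.8 ± 2.55 CPM (log2 change 1.43, adjusted p = 2.0e-06), Igf2r, the clearance receptor for IGF2, from 66.9 ± 12.9 to 135 ± 16.8 CPM (log2 change 1.01, adjusted p = 1.7e-04), and Igfbp4, an IGF-binding protein, from 109.7 ± 18.03 to 259 ± 15.4 CPM (log2 change 1.24, adjusted p = 1.3e-05).

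Most ephrin and Eph receptor genes rose. Of 19 tested genes of that list, 13 were called higher and 4 lower, with a median log2 change of 0.93. Efnb1, ephrin-B1, had 18.1, 6.41, 20.3 and 18.7 CPM in WT1 to WT4 and 56.7, 66.1, 76.7 and 60.4 CPM in KO1 to KO4 (log2 change 2.04, SE 0.31, adjusted p = 4.0e-04), with WT2 the lowest. Epha2, an Eph receptor, had 17.9, 15.5, 16.2 and 21.4 CPM in WT1 to WT4 and 6.20, 5.84, 7.01 and 5.61 CPM in KO1 to KO4 (log2 change -1.52, SE 0.13, adjusted p = 1.7e-06). Epha4 rose from 6.60 ± 1.195 to 15.7 ± 2.505 CPM (log2 change 1.25, adjusted p = 3.6e-05) and Epha3 from 1.33 ± 0.291 to 4.34 ± 0.644 CPM (log2 change 1.71, adjusted p = 8.2e-06), so Epha2 moved against the other receptors named. After GC correction 12 of the 19 were called higher and 4 lower. Of 35 tested genes of semaphorins, plexins, slits and netrins, 14 were called higher and 5 lower, with a median log2 change of 0.16. Sema4b had 23.6, 19.8, 21.8 and 26.6 CPM in WT1 to WT4 and 76.6, 79.1, 95.6 and 69.3 CPM in KO1 to KO4 (log2 change 1.80, SE 0.13, adjusted p = 6.7e-07). The netrin receptors moved apart: Unc5b had 51.9, 61.5, 52.3 and 68.1 CPM in WT1 to WT4 and 14.3, 15.2, 17.03 and 13.3 CPM in KO1 to KO4 (log2 change -1.97, SE 0.13, adjusted p = 2.7e-07), whereas Unc5c rose from 3.80 ± 0.876 to 10.8 ± 1.34 CPM (log2 change 1.51, adjusted p = 1.5e-05).

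Channel and receptor genes changed in both directions. Of 28 tested genes of voltage-gated channels, 9 were called higher and 12 lower, with a median log2 change of -0.30. The sodium channels Scn8a, from 9.37 ± 0.995 to 2.93 ± 0.347 CPM (log2 change -1.68, adjusted p = 7.2e-07), and Scn2a, from 3.80 ± 0.569 to 0.931 ± 0.284 CPM (log2 change -2.02, adjusted p = 6.9e-06), fell. Cacna1g, a low-threshold calcium channel, had 8.23, 10.1, 7.93 and 6.46 CPM in WT1 to WT4 and 45.5, 37.0, 36.0 and 36.1 CPM in KO1 to KO4 (log2 change 2.24, SE 0.14, adjusted p = 2.7e-07). It stood against the falls in every knockout library. Of 28 tested genes of glutamate and GABA receptors, 9 were called higher and 13 lower, with a median log2 change of -0.10. Grik3, a kainate receptor subunit, had 33.7, 35.7, 27.5 and 22.8 CPM in WT1 to WT4 and 7.92, 6.38, 6.91 and 6.84 CPM in KO1 to KO4 (log2 change -2.09, SE 0.15, adjusted p = 5.0e-07), and Grik5, another subunit, rose from 85.7 ± 12.5 to 157 ± 14.7 CPM (log2 change 0.87, adjusted p = 1.2e-04). Gabra4, a GABA-A subunit, had 2.24, 2.15, 1.38 and 2.14 CPM in WT1 to WT4 and 8.92, 10.2, 10.4 and 7.83 CPM in KO1 to KO4 (log2 change 2.24, SE 0.17, adjusted p = 7.5e-07). Beside these lists, 14 of 18 neuronal markers were called lower and 3 higher, with a summed level of 1045 to 1202 CPM in wild type and 883 to 985 CPM in knockout. Its part in the channel and receptor changes was not tested.

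Transcription factors that pattern the telencephalon moved within both the dorsal and the ventral list. Of 17 tested genes of the dorsal list, 6 were called higher and 4 lower, with a median log2 change of 0.22. Lhx2, which specifies cortex, had 29.5, 19.1, 41.7 and 38.2 CPM in WT1 to WT4 and 137, 179, 204 and 196 CPM in KO1 to KO4 (log2 change 2.48, SE 0.23, adjusted p = 4.1e-06). Wild-type libraries spread widely, with WT2 lowest, but did not reach the knockout libraries. Emx2, a factor of caudal and medial cortex, rose from 27.6 ± 7.08 to 66.3 ± 5.66 CPM (log2 change 1.26, adjusted p = 1.0e-04). Nr2f2 (COUP-TFII), which marks caudal regions, had 0.232, 0.142, 0.137 and 0.203 CPM in WT1 to WT4 and 5.63, 6.57, 6.23 and 5.44 CPM in KO1 to KO4 (log2 change 5.08, SE 0.18, adjusted p = 4.5e-09). Of 10 tested genes of the ventral list, 6 were called higher and 2 lower, with a median log2 change of 0.64. Sp8, present in dorsal lateral ganglionic eminence, had 1.69, 1.39, 1.75 and 2.14 CPM in WT1 to WT4 and 12.2, 13.2, 15.1 and 12.1 CPM in KO1 to KO4 (log2 change 2.92, SE 0.15, adjusted p = 4.7e-08), and Gsx1, of the ganglionic eminences, had 11.5, 9.48, 14.3 and 13.7 CPM in WT1 to WT4 and 1.82, 1.85, 2.35 and 1.90 CPM in KO1 to KO4 (log2 change -2.63, SE 0.15, adjusted p = 1.4e-07). The last 2 moved in opposite directions with no overlap. Of 28 HOX genes 4 passed the filter, with a mean sum of 0.170 CPM in wild type and 1.06 CPM in knockout. Their median log2 change of 4.99 rests on few counts. Among immediate early genes, of 23 tested genes of that list, 6 were called higher and 9 lower, with a median log2 change of -0.18, with Ier3 falling from 92.6 ± 8.49 to 35.1 ± 4.81 CPM (log2 change -1.40, adjusted p = 2.4e-06) and Jund rising from 138 ± 11.5 to 263 ± 9.42 CPM (log2 change 0.94, adjusted p = 1.5e-05).

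RNAs that do not code for protein fell more often than they rose. Of 852 lincRNA genes tested 144 were called higher and 311 lower, with a median log2 change of -0.31, and of 763 antisense genes 104 were higher and 239 lower, with a median of -0.28. Of 51 snoRNA genes 1 was called higher and 24 lower. Protein-coding genes had 29.9% higher and 25.5% lower, with a median of 0.03. Weakly expressed genes of all types together also leaned lower. Under 0 log2 CPM 18.3% were higher and 31.7% lower, with a median of -0.26. At 0 to 2 log2 CPM 24.4% were higher and 40.9% lower, with a median of -0.22. The part of expression level in the non-coding shares was not tested. Among named long RNAs, of 27 tested genes of the list, 1 was called higher and 17 lower, with a median log2 change of -0.62. Tug1 had 40.8, 40.0, 29.1 and 26.1 CPM in WT1 to WT4 and 19.1, 16.0, 13.9 and 13.7 CPM in KO1 to KO4 (log2 change -1.11, SE 0.17, adjusted p = 1.8e-04), and Miat had 9.17, 13.5, 9.78 and 5.24 CPM in WT1 to WT4 and 2.96, 1.82, 1.13 and 2.46 CPM in KO1 to KO4 (log2 change -2.17, SE 0.34, adjusted p = 5.0e-04); both were named after their values were seen. Of 9277 annotated retained-intron transcripts tested 573 were called higher and 2365 lower, with a median of -0.41, and of 28083 protein-coding transcripts 6481 were higher and 4205 lower, with a median of 0.10. Such transcripts took 2.58 ± 0.133% of counts in wild type and 2.37 ± 0.0642% in knockout. The rRNA share was lower in knockout too (2.58 to 3.08% against 4.60 to 9.40%), and its part, or that of unspliced RNA in the preparations, was not tested. No source used here says whether counting used strand, so a gene and its antisense partner cannot be told apart with certainty.

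Gene structure went with the direction of change among 10695 protein-coding genes at 1 log2 CPM or above whose leading transcript is annotated as coding. Those of 2 exons had 50.9% called higher and 18.6% lower of 499, and genes of 21 exons or more had 20.5% higher and 27.3% lower of 1438. The median log2 change fell from 0.41 to -0.09 between those groups, with 0.14 for 3 to 5 exons and 0.06 for 11 to 20. The longest internal exon showed a step. Where it measured 1 to 200 bases, 26.8% were higher and 24.4% lower, and where it measured over 400 to 1000 bases, 39.5% were higher and 17.9% lower. Above 400 bases the share did not climb further, with 40.1% higher at over 1000 to 2000 bases and 37.9% above 2000. Within genes of 6 to 20 exons the same step was seen, from 24.97% higher at 200 bases or fewer to 40.9% at over 400 to 1000. These genes are not independent replicates, and the shares are a description.

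**Figure D3:**
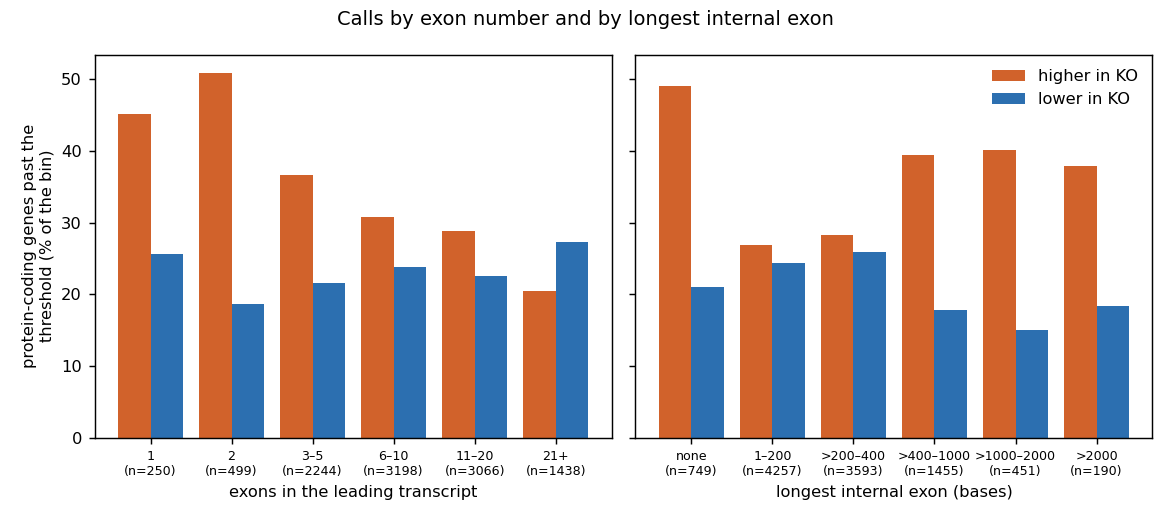
Percentage of protein-coding genes called higher (orange) or lower (blue) in knockout, by number of exons in the leading transcript (left) and by length of its longest internal exon in bases (right), with the number of genes in each bin. Orange falls from 50.9% in 2-exon genes to 20.5% in genes of 21 exons or more, and rises from 26.8% to 39.5% as the longest internal exon passes 400 bases.

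Base composition also went with direction. Among the 11411 protein-coding genes of that level, those whose leading transcript had a GC content of 45% or less were 16.0% higher and 37.6% lower, and those over 60% were 46.2% higher and 15.5% lower, with medians of -0.19 and 0.33. Composition moved between libraries of one genotype as well. In the group over 60% the median deviation from the wild-type mean was -0.16 on the log2 scale in WT2 and 0.13 in WT4, and it ran from 0.28 in KO1 to 0.44 in KO4. Whether this is a property of the RNA or of library preparation was not tested. When each library's trend with GC was removed, 4433 genes were called higher and 5626 lower, and 87.0% of the original calls were still made in the same direction. The structure pattern was kept in that fit: 45.3% of 2-exon genes and 15.9% of genes of 21 exons or more were called higher, and 24.0% and 35.2% for longest internal exons of 1 to 200 and over 400 to 1000 bases. Retained-intron transcripts had a median of -0.52 in that fit, and lincRNA genes -0.25. Protein-coding transcripts, called higher more often than lower before the correction, had 18.9% higher and 19.6% lower after it, with a median of -0.04, and protein-coding genes had 26.8% higher and 29.0% lower, with a median of -0.03.

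The letters GGAC, the core of the m6A context, were counted on the sense strand of each leading transcript. Genes with up to 2 per 1000 bases were 18.5% higher and 31.8% lower of 852, and genes with over 6 were 41.7% higher and 16.8% lower of 2269. The count goes with GC content, which had a median of 43.6% in the first group and 56.2% in the second. At a GC content of 55 to 60%, genes with over 4 per 1000 bases were 42.4% higher of 2090 and genes with up to 4 were 33.9% higher of 425. At 45% GC or less those shares were 18.5% of 363 and 15.6% of 1994. Over 60% they were 48.8% of 553 and 31.6% of 98. In the groups between, they were 28.8% of 1229 and 26.1% of 1633 at 45 to 50% GC, and 36.3% of 2110 and 29.9% of 916 at 50 to 55%. At 45 to 50% GC the shares called lower were 26.2% for genes with over 4 and 24.1% for genes with up to 4. The share called lower was thus also slightly larger for genes with over 4 there, and it was smaller for them in each of the other GC groups.

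Annotated transcripts were tested one by one and against the other transcripts of their gene. Of 48272 transcripts that passed the filter 8370 (17.3%) were called higher and 8639 (17.9%) lower, and 1197 genes had transcripts called in both directions. Transcript usage, the split of a gene's RNA among its transcripts, changed in 2065 of 10532 genes tested (19.6%, edgeR diffSpliceDGE, Simes p per gene, Benjamini-Hochberg adjusted p under 0.05). A stricter count asked for a gene mean of at least 10 CPM and a transcript whose share of the gene, in length-corrected counts, moved by 20 percentage points or more with no overlap, and 344 of 7440 genes passed (4.62%). Of these 137 were called higher at the gene level, 92 lower and 115 neither. The transcript that rose most and the one that fell most differed in their last exon in 178 genes and in their first exon in 127. Of the 178, 50 had last exons that do not overlap, and 128 had overlapping last exons with 3′ ends over 100 bases apart. In 95 genes they differed in their introns alone, with overlapping first and last exons. The transcript that rose was the longer in 173 genes and the shorter in 171. In 55 genes the leading transcript differed between genotypes in every library. Shares are model estimates from short reads, and a share in an annotated transcript can include reads from a similar transcript.

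The 2 widest moves, in Amigo1 and Exoc1, were between transcripts that differ in their introns while their first and last exons overlap. Amigo1, a neuronal adhesion protein that binds the Kv2.1 channel, had its transcript Amigo1-203 at 4.49%, 9.33%, 9.60% and 7.76% in WT1 to WT4 and 79.3%, 79.3%, 76.7% and 85.6% in KO1 to KO4. That spliced form of 3 exons and 927 coding bases went from 7.80 ± 2.35% to 80.2 ± 3.81% (usage adjusted p = 1.8e-11), and the 2-exon form Amigo1-201, with 1476 coding bases, from 86.8 ± 1.78% to 18.6 ± 3.81%. Exoc1, a subunit of the exocyst that tethers secretory vesicles, had Exoc1-202 at 0.171%, 1.06%, 18.2% and 12.2% in WT1 to WT4 and 77.4%, 73.2%, 81.2% and 72.5% in KO1 to KO4. The share went from 7.92 ± 8.78% to 76.1 ± 4.05% (adjusted p = 5.1e-09), and Exoc1-201, which lacks 1 exon of 45 bases, went from 42.2 ± 15.6% to 0 ± 0%, listed at 0 in every knockout library. The 8 libraries did not overlap in either gene.

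Immune and oxygen-sensing genes were among those that changed form. Ifnar1, a chain of the type I interferon receptor, had Ifnar1-202 at 0.450%, 0.944%, 1.40% and 0.724% in WT1 to WT4 and 49.6%, 53.3%, 55.7% and 56.1% in KO1 to KO4, from 0.881 ± 0.404% to 53.7 ± 2.99% (adjusted p = 2.1e-17). Ifnar1-201, which has the same coding length of 1770 bases, went from 94.5 ± 1.04% to 43.4 ± 2.06%. Parp9, a partner of the interferon-induced ubiquitin ligase DTX3L, had Parp9-203 at 42.5%, 19.9%, 31.2% and 31.8% in WT1 to WT4 and 91.6%, 94.6%, 81.2% and 95.9% in KO1 to KO4 (adjusted p = 7.7e-05). It carries a 34-base exon that the 10-exon form Parp9-201 lacks, and its coding sequence is 2490 bases against 1791. Egln2, a prolyl hydroxylase (PHD1) that marks hypoxia-inducible factors for destruction, had Egln2-202 at 14.4%, 21.05%, 32.2% and 36.8% in WT1 to WT4 and 87.6%, 82.4%, 85.0% and 84.7% in KO1 to KO4, from 26.1 ± 10.2% to 84.9 ± 2.14% (adjusted p = 1.5e-04). Its coding length was the same in both forms, at 1257 bases. The first exons differed, and the last exons overlapped with 3′ ends 330 bases apart.

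Changes of the 3′ end ran toward both shorter and longer forms. Paics, an enzyme of purine synthesis, moved to a longer 3′ end with Paics-203 at 15.1%, 24.9%, 26.3% and 17.4% in WT1 to WT4 and 71.9%, 71.0%, 73.6% and 75.1% in KO1 to KO4, from 20.9 ± 5.48% to 72.9 ± 1.81% (adjusted p = 5.7e-12), with the same 1275 coding bases as Paics-202, whose share went from 56.3 ± 7.31% to 4.06 ± 1.55%. Vangl1, a planar cell polarity protein, moved to a shorter end, with the share of the shorter transcript going from 4.50 ± 5.01% to 49.5 ± 4.51% (adjusted p = 2.3e-05). Magi3, a scaffold of cell junctions, moved to the shorter Magi3-203, which has another last exon, from 6.16 ± 2.99% to 52.1 ± 3.29% (adjusted p = 7.2e-05). Copg2, a coat protein of Golgi vesicles, moved to the longer Copg2-201, from 43.3 ± 9.54% to 89.1 ± 4.37% (adjusted p = 4.6e-05). Each of the 4 separated completely between genotypes.

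Start sites and coding potential changed in others. Tdrd7, a Tudor protein of RNA granules, used the first exon of Tdrd7-201 at 46.8%, 7.95%, 48.7% and 41.3% in WT1 to WT4 and 90.9%, 89.9%, 87.9% and 87.2% in KO1 to KO4, from 36.2 ± 19.1% to 89.0 ± 1.75% (adjusted p = 7.8e-11). WT2 lay far below the other wild-type libraries, and the other 3 were still below every knockout library. Arhgef25, a guanine nucleotide exchange factor, gained Arhgef25-201, from 1.54e-06 ± 2.18e-06% to 43.5 ± 12.8% (adjusted p = 1.2e-10). Coding potential rose in 59 of the 344 genes and was lost in 48. Slc25a37, mitoferrin-1, the mitochondrial iron importer, had its retained-intron transcript Slc25a37-203 at 99.1%, 96.0%, 90.6% and 88.9% in WT1 to WT4 and 47.1%, 47.0%, 39.3% and 40.0% in KO1 to KO4, from 93.6 ± 4.73% to 43.4 ± 4.29% (adjusted p = 7.7e-10), and its coding transcript Slc25a37-201 went from 0.693 ± 0.564% to 32.0 ± 6.48%. Invs, inversin of the primary cilium, moved the other way, with the nonsense-mediated decay transcript Invs-203 going from 2.53 ± 0.639% to 40.0 ± 5.88% (adjusted p = 5.1e-08). Atp1b2, the glial beta-2 subunit of the sodium pump, also lost coding share, with the processed transcript Atp1b2-202 going from 20.8 ± 6.47% to 57.7 ± 9.09% (adjusted p = 0.0020).

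**Figure D4:**
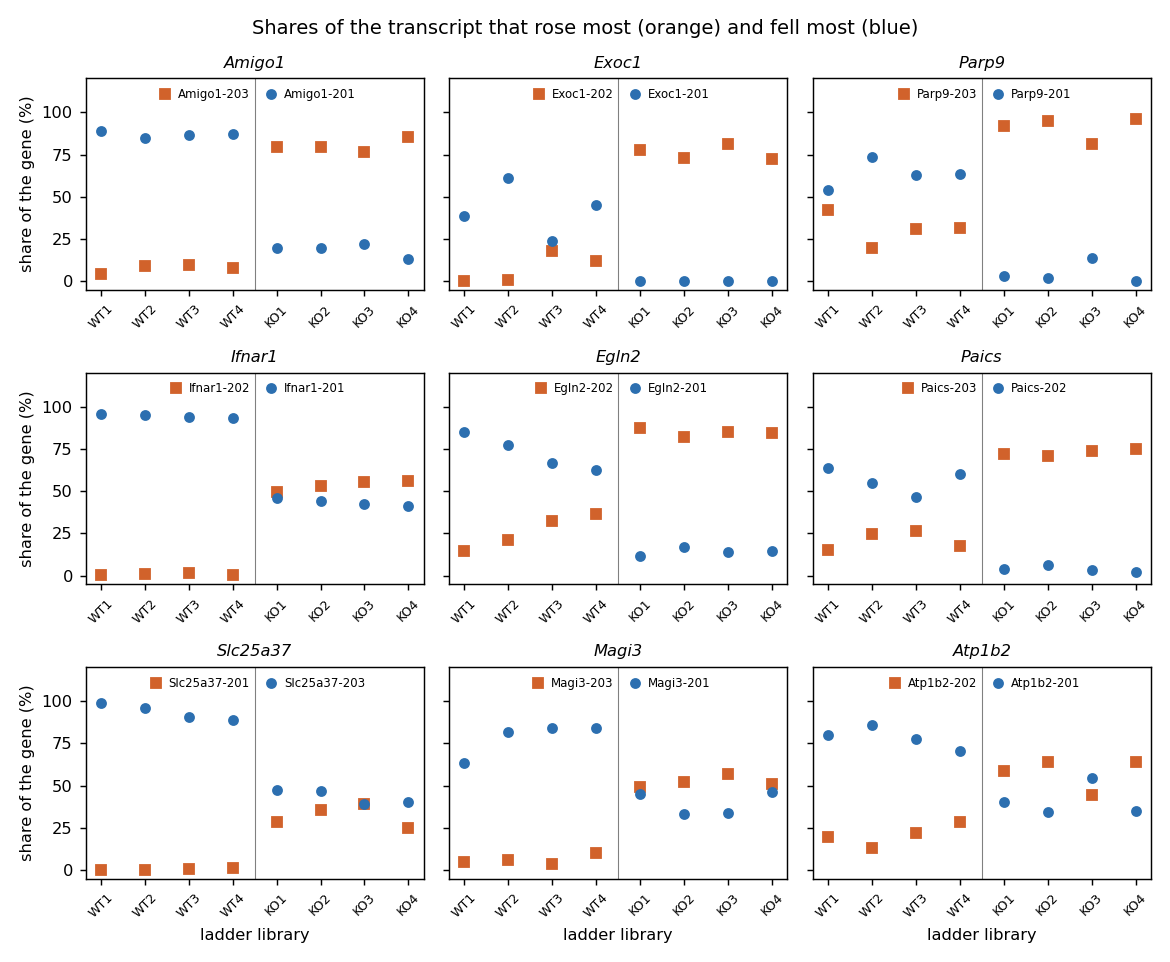
Share of the gene (percent of length-corrected counts) in each library for the transcript that rose most (orange squares) and the one that fell most (blue circles) in 9 genes; the vertical line divides WT from KO libraries. The pairs cross between genotypes in Amigo1, where Amigo1-203 goes from 7.80% to 80.2%, and Slc25a37-203 drops from 93.6% to 43.4%.

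Internal exons were then followed by inclusion, the share of TPM in transcripts that span an exon and contain it, a measure chosen after the data were seen. Of 4300 exons with an inclusion between 5 and 95% in a genotype, 327 (7.60%) moved by 10 percentage points or more without overlap and with the usage test passed, 155 of them more and 172 less included in knockout. These exons lay in 241 genes, of which 88 were called higher, 53 lower and 100 neither. A length that is a multiple of 3, which keeps the reading frame, was found for 55.7% of moved exons and 51.1% of all 4300. Exons of 3 to 27 bases, the microexons of neurons, moved in 7.11% of 211 cases, against 7.60% of all. GGAC was present in 38.1% of the more included exons, 34.3% of the less included and 37.0% of all 4300.

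The exons below were chosen after their values were seen, for a large move in a gene of known function or a known alternative exon, and are printed 5′ to 3′ on the coding strand from the GENCODE M21 transcripts on GRCm38, with GGAC in capitals. All are annotated as coding. Those more included in knockout were in Exoc1 (chr5:76557819-76557863, plus strand, exon 11 of 19 in Exoc1-202), Parp9 (chr16:35943369-35943402, plus strand, exon 3 of 11 in Parp9-203), Plod2 (chr9:92601985-92602047, plus strand, exon 14 of 20 in Plod2-203), Sort1 (chr3:108355472-108355570, plus strand, exon 18 of 21 in Sort1-203) and Fn1 (chr1:71613763-71614035, minus strand, exon 25 of 46 in Fn1-201). Those less included were in Hsf1 (chr15:76500131-76500196, plus strand, exon 11 of 13 in Hsf1-205), Acadvl (chr11:70014793-70014858, minus strand, exon 3 of 20 in Acadvl-202), Rpn2 (chr2:157323223-157323270, plus strand, exon 16 of 17 in Rpn2-201), Spns1 (chr7:126372412-126372567, minus strand, exon 7 of 12 in Spns1-201) and Lrp8 (chr4:107870012-107870188, plus strand, exon 18 of 19 in Lrp8-201).
Exoc1: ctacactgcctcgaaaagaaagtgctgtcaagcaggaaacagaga
Parp9: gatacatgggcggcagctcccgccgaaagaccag
Plod2: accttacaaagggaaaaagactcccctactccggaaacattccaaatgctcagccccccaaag
Sort1: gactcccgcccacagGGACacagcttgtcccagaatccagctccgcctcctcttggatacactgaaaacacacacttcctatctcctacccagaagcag
Fn1: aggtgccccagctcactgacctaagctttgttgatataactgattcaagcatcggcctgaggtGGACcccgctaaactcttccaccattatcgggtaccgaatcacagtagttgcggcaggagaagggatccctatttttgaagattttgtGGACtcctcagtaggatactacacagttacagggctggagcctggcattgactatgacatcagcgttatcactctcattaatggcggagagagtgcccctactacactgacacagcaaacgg
Hsf1: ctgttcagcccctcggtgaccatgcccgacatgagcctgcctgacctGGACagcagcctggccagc
Acadvl: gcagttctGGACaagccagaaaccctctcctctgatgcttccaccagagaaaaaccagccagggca
Rpn2: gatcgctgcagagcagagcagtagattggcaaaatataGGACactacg
Spns1: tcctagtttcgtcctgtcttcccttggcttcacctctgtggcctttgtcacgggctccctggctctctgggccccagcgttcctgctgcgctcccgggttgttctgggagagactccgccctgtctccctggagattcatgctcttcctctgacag
Lrp8: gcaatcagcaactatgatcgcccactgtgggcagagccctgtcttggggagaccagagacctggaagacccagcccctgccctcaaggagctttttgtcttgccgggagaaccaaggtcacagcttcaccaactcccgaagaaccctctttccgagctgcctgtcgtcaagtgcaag
The Exoc1 exon of 45 bases and the Plod2 exon of 63 bases are whole numbers of codons, and that of Parp9, at 34 bases, is not. GGAC occurs in 5 of the 10 exons shown: those of Sort1, Fn1, Hsf1, Acadvl and Rpn2.

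Of the exons printed above, 5 were more included in knockout. The Exoc1 exon was included at 49.0%, 28.9%, 63.7% and 44.5% in WT1 to WT4 and 100.0%, 100.0%, 100.0% and 100.0% in KO1 to KO4 (usage adjusted p = 5.1e-09). Every knockout library was at full inclusion, while wild-type libraries varied. The Plod2 exon, which makes the long form of lysyl hydroxylase 2, the enzyme that hydroxylates collagen telopeptides, was included at 13.4%, 11.1%, 17.95% and 14.5% in WT1 to WT4 and 47.6%, 48.6%, 49.9% and 47.7% in KO1 to KO4 (adjusted p = 7.2e-04). Its gain stands beside the rise of the collagen chaperone Serpinh1 described above. The Fn1 exon is the extra domain B of fibronectin, a form of embryonic matrix, and was included at 5.76%, 6.40%, 6.77% and 5.09% in WT1 to WT4 and 35.7%, 36.1%, 32.2% and 39.6% in KO1 to KO4 (adjusted p = 0.030). The Fn1 usage call was lost when any 1 library was left out (adjusted p = 0.056 to 0.18) and the inclusion itself stayed 28.6 to 31.1 points higher in knockout. The Sort1 exon, of the neurotrophin and lipoprotein sorting receptor sortilin, went from 33.4 ± 1.33% to 62.8 ± 2.76% (adjusted p = 0.019). The Sort1 call was lost without WT1, KO1, KO2 or KO4 (adjusted p = 0.052, 0.054, 0.060 and 0.051). The 34-base Parp9 exon went from 33.9 ± 9.20% to 95.02 ± 6.49%.

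The other 5, and that of Nasp, were less included. The Hsf1 exon of 66 bases separates the long from the short form of heat shock factor 1, and was included at 89.8%, 88.1%, 86.2% and 84.0% in WT1 to WT4 and 64.5%, 46.1%, 59.8% and 49.3% in KO1 to KO4 (adjusted p = 2.3e-11). Wild-type libraries lay above all knockout libraries, in cells in which 10 of 17 heat shock genes were called higher. The Lrp8 exon of 177 bases encodes the cytoplasmic insert of the reelin receptor ApoER2, and was included at 81.8%, 95.5%, 81.8% and 89.9% in WT1 to WT4 and 39.4%, 27.7%, 21.1% and 33.6% in KO1 to KO4 (adjusted p = 0.0021). Gene-level Lrp8 did not pass the threshold. The Acadvl exon, near the amino terminus of a mitochondrial acyl-CoA dehydrogenase, went from 81.8 ± 4.39% to 48.7 ± 6.92% (adjusted p = 1.4e-05). The Spns1 exon, of a lysosomal lipid transporter, went from 82.1 ± 2.92% to 51.7 ± 6.18% (adjusted p = 7.1e-05). The Rpn2 exon, of the oligosaccharyltransferase, went from 43.6 ± 4.01% to 11.4 ± 5.18% (adjusted p = 0.0093), a call lost without KO4 (adjusted p = 0.058). The exon of 975 bases in Nasp, which makes the longer, testis-type form of this histone chaperone, went from 78.3 ± 4.56% to 45.1 ± 1.33% (adjusted p = 2.4e-04).

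**Figure D5:**
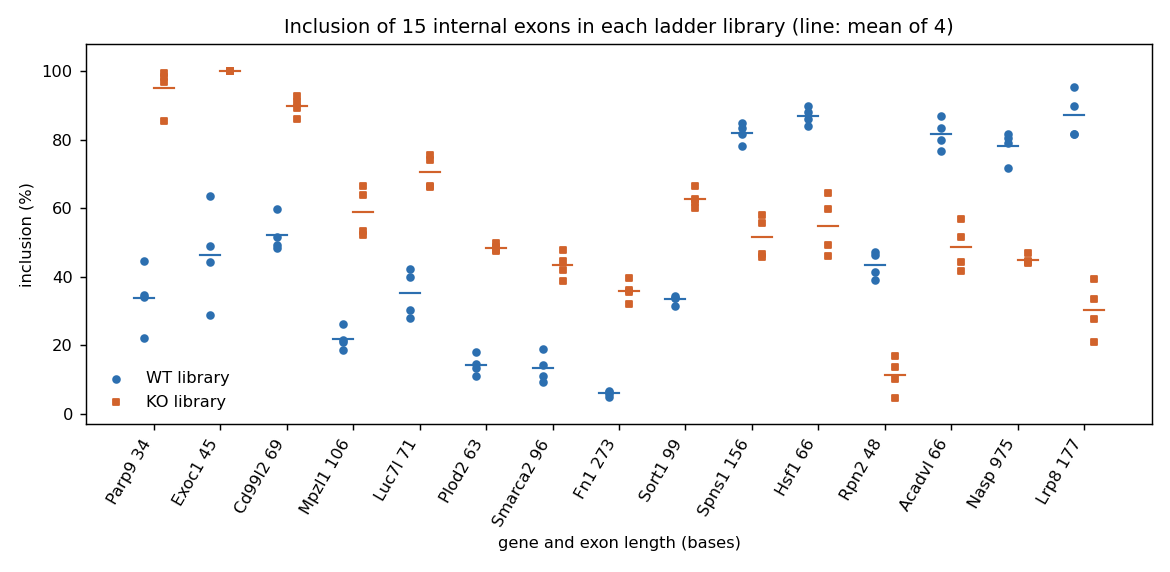
Inclusion (percent) of 15 internal exons in each library, ordered by the change from wild type to knockout and named by gene and exon length in bases; blue circles are WT libraries, orange squares KO libraries and lines the mean of 4. Exoc1 reaches 100% in knockout from a mean of 46.5%, and Lrp8 drops from 87.3% to 30.5%.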

How the data were processed

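The 8 files analysed hold one row per transcript, with an effective length, an estimated count and a TPM value. Per the submitters' processing notes, the tools were STAR 2.5.4b, StringTie and kallisto on GRCm38 (mm10); no source used here gives their order, the kallisto version or how the 7 length bands were joined. The estimated counts deposited by the authors were not normalized, and TPM, also deposited by the authors, is scaled to transcript length and library total. Of 150173 targets, 138789 matched GENCODE M21 and were summed to 54749 genes; 11338 assembled targets and 46 unmatched ones were left out, and assembled targets took 11.9 to 13.4% of counts.

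Counts were rounded and tested with edgeR 4.0.16 (limma 3.58.1, R 4.3.3) by the quasi-likelihood test after TMM scaling and filterByExpr, with Benjamini-Hochberg adjustment and a threshold of 0.05. The same fit on transcripts fed diffSpliceDGE. Transcript shares used estimated counts divided by effective length, and exon inclusion used TPM of transcripts at 1 TPM or more in a gene's libraries and 20% or more of the gene. Scripts were tested on simulated data. kallisto divides reads among similar sequences, so levels of paralogs and pseudogene parents are uncertain. Counts summed to genes ranged from 89937405 to 110286801 per library. CPM was scaled to the count of all targets in a library, with the assembled ones included.

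Genes named were Mettl14, the 10 largest rises and falls in CPM among calls of 2-fold or more without overlap, up to 3 rises and 3 falls per list with a log2 CPM of 1 or more, and the 15 genes with the largest moved share plus up to 4 per class of structural change; not all of them are described, and some are not reported here. Members and the 51 gene lists were chosen with earlier results of these data known. The alternatives were another scaling, DESeq2 1.42.0, limma on log2(TPM + 1), no filter, an effective length offset, a replicate block, each library left out, other usage filters and share thresholds, and, added after seeing the data, a correction of each library for GC content and the exon measure.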

Additional observations from a re-analysis of the deposited data

Results flagged for a closer look

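In 258 groups of 4 libraries, 11 (4.26%) had 1 library standing far from the other 3; chance alone marks about 1 in 20 such groups. Among wild-type libraries the lowest stood apart for Efnb1 at 6.41 CPM, Eif1a at 13.7 CPM, Gabra4 at 1.38 CPM and Slc7a5 at 93.7 CPM, and the highest for Cbx2 at 9.21 CPM, Isg15 at 419 CPM and Tnrc6c at 30.8 CPM. Among knockout libraries the highest stood apart for Cacna1g at 45.5 CPM, Gsx1 at 2.35 CPM and Tgfb3 at 11.1 CPM. For transcript shares, 1 wild-type library had the highest share of the Tdrd7 transcript that fell, at 85.1%. In each case the genotypes still did not overlap.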

How the results depend on the processing

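Of 8 counts (genes, transcripts, usage, shares and exons), the number of genes called lower was 3321 with limma on log2(TPM + 1) against 5090, by a measure that compresses low genes. Usage calls were 3122 with 10 or more counts in every library of a genotype and 4733 with a gene-level F test, against 2065. Genes with a moved share were 739 at 10 points and 124 at 30 points, against 344, which follows from the threshold. Exons moved by 20 points or more were 59 more and 67 less included. The other alternatives gave counts within 1.5 times of the reported ones.

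Leaving out each library in turn gave 4451 to 4855 genes higher, 4508 to 5274 lower, 1550 to 1780 usage calls, 271 to 355 genes with a moved share, and 124 to 165 exons more and 130 to 168 less included. Deviations of libraries with the same number had correlations of -0.0093, 0.054, -0.023 and 0.045. Pairs with different numbers ran from -0.19 (WT4 with KO1) to 0.28 (WT2 with KO1). Deviations from a mean of 4 libraries depend on one another, so these values cannot decide whether libraries of one number were handled together. With the number as a replicate block 4922 genes were higher, 5027 lower, 7080 transcripts higher, 6610 lower, 1817 genes had changed usage, 324 a moved share, and 150 and 158 exons moved. The usage calls of Fn1 (adjusted p = 0.11) and Rpn2 (adjusted p = 0.058) were lost with the block.

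No direction reversed for 100 named genes, 14 transcript shares or 15 exons. Of 1500 gene comparisons 1497 kept the call; the others were Tfrc with the length offset and Aldoc and Upf1 under GC correction. All 168 share comparisons kept it, and 15 of 150 exon comparisons did not, in Fn1, Sort1 and Rpn2. With limma on log2(TPM + 1), 20 named genes, mostly of low level, had fold changes, on the linear scale, that were over 1.5 times nearer to 1, and no other alternative moved the fold change of a named gene that far except Tfrc with the length offset. The GC correction gave 6793 transcripts higher and 11083 lower; its cause was not tested. Genes near the filter rest on few counts.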
